A study of Homo sapiens with 6 samples.

Results

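The replication-dependent histone genes were taken as the protein-coding rows of the deposited count table whose names begin with HIST1H, HIST2H, HIST3H or HIST4H. The rule found 73 rows with 71 symbols among 60461 rows, because HIST2H2AA4 and HIST1H3D each have 2 rows. By class they comprised 6 rows for the linker histone H1, 18 for H2A, 18 for H2B, 16 for H3 and 15 for H4. Of these, 56 lie in the HIST1 cluster on chromosome 6, 13 in the HIST2 cluster and 3 in the HIST3 cluster, both on chromosome 1, and 1, HIST4H4, on chromosome 12. A filter on low counts kept 45 rows for testing and left out 28, which are described by their counts.

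Replication-dependent histone genes supply the histones that package newly copied DNA, and their messenger RNAs accumulate in S phase and are lost when DNA synthesis stops. The core histones H2A, H2B, H3 and H4 form the protein spool of the nucleosome, and H1 binds the DNA between spools. These genes are short and mostly lack introns, and their messenger RNAs end without a poly(A) tail, in a conserved stem-loop that is bound by the stem-loop binding protein SLBP and cut free with help from the U7 small nuclear ribonucleoprotein. The protein NPAT, a target of cyclin E and its kinase, drives their transcription.

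Expression was compared in the human cell line MDA-MB-231, derived from a triple-negative breast cancer, between 3 libraries from cells given an adenovirus coding for ADAR1 p110 and 3 from cells given a control adenovirus coding for eGFP, called GFP here. ADAR1 p110 is the mainly nuclear form of an RNA editing enzyme, which turns adenosine into inosine where RNA is double-stranded. Both groups received virus at a multiplicity of infection of 200, fresh medium after 16 h and RNA extraction at 48 h, so both carry an adenoviral vector, and cells without virus were not analysed here. The labels call the replicates biological but do not describe separate cultures, so p-values measure only the spread between these libraries. Total RNA was sequenced with a stranded kit, which unlike poly(A) selection does not require a tail.

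Libraries held 72741235 to 99589278 counts, and levels are given as CPM, counts scaled to a common library total by the TMM method of edgeR. With 0 counts a level of at most 0.0304 to 0.0414 CPM was allowed across libraries, which covers the error of counting alone. ADAR, the delivered gene, had 1011, 1015 and 991 CPM in the ADAR1 p110 libraries and 257, 272 and 272 CPM in the GFP libraries (log2 fold change 1.91, edgeR adjusted p = 2.67e-09), counts that do not part viral from endogenous transcripts. The second principal component of all genes, with 21.8% of the variance, held 1 library of each group away from the rest, ADAR1 p110 replicate 1 at 26.2 and GFP replicate 2 at 24.1, so results are also given without that pair. Of the markers of this line, VIM, CD44, AXL and CAV1 summed to 4678 to 4838 CPM in ADAR1 p110 and 4313 to 4493 CPM in GFP, while ESR1 and PGR, defining receptors of luminal breast cancer, stayed at or below 0.0827 CPM in each library. Of the other 3 epithelial or luminal markers, EPCAM stood at 10.3 to 10.9 CPM in ADAR1 p110 and 10.1 to 10.2 CPM in GFP, and GATA3 at 3.30 to 4.20 CPM in ADAR1 p110 and 3.33 to 3.74 CPM in GFP. CAV1, the caveolae protein, was higher in ADAR1 p110, with 891, 871 and 875 CPM against 783, 743 and 775 CPM in GFP (edgeR adjusted p = 0.0378), as was the last of these, CDH1, the epithelial cadherin, at 4.24, 3.88 and 4.33 CPM against 2.85, 2.85 and 2.70 CPM in GFP (edgeR adjusted p = 0.00966). Leukocyte markers and endothelial markers each summed to at most 0.440 CPM in any library.

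The feature that defines these transcripts was read from the hg19 sequence downstream of each stop codon. A stem of 6 base pairs opening with GG and closing with CC, around a loop of 4 bases with T as its first base and again after 1 more base, was searched in the 150 genomic bases after the stop. It was found in 69 of the 70 histone rows with a located stop codon, against 107 of 19979 genes of the annotation (0.536%), a total that includes the histone genes themselves. Its start lay 22 to 67 bases after the stop codon, with a median of 35. The sequences below are shown because they carry the processing signal that these genes share, with the stem-loop in capitals and 5 flanking bases on each side in lower case. They cover genes that rose (HIST1H2BM, HIST2H2AB, HIST1H2AG and HIST1H4A), an abundant gene with overlapping groups (HIST1H2BK), the most abundant member (HIST1H1C) and a gene with next to no counts (HIST1H1D).
HIST1H2BM: ccaaaGGCTCTTTTCAGAGCCgtcca
HIST1H1C: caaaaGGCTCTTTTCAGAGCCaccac
HIST1H1D: taaacGGCTCTTTTCAGAGCCaccca
HIST2H2AB: ccaaaGGCTCTTTTAAGAGCCaccaa
HIST1H2BK: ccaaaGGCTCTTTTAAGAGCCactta
HIST1H2AG: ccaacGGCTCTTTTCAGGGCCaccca
HIST1H4A: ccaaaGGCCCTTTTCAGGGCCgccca
In hg19 these stand at chr6:27783242-27783267 (plus strand) for HIST1H2BM, chr6:26055967-26055992 (minus) for HIST1H1C, chr6:26234440-26234465 (minus) for HIST1H1D and chr1:149859018-149859043 (minus) for HIST2H2AB. Those of HIST1H2BK, HIST1H2AG and HIST1H4A stand at chr6:27114140-27114165 (minus), chr6:27101289-27101314 (plus) and chr6:26022253-26022278 (plus).

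Of the 10 distinct stem-loops, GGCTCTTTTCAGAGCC was the most common, with 41 rows from H1, H2A, H2B and H3. All 14 H4 rows with a stem-loop began it with GGCC, which no row of another class did, and 9 of them carried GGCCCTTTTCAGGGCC as in HIST1H4A. Genes with the same stem-loop did not share a level. HIST1H1C and HIST1H1D carry the same 16 bases, and HIST1H1C averaged 851 CPM over the 6 libraries, against 0.0136 CPM for HIST1H1D. Among tested rows the median log2 fold change was 0.37 for the 26 with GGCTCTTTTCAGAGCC, of which 12 rose, 0.23 for the 6 with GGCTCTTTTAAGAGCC, of which 1 rose, and 0.29 for the 6 with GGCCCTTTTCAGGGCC, of which 2 rose. These medians describe the groups and were not tested against each other.

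Histone transcripts were higher after ADAR1 p110 in each class. Summed over all 73 rows, they reached 6804, 7224 and 7322 CPM in ADAR1 p110 replicates 1, 2 and 3, against 5829, 4909 and 6382 CPM in GFP replicates 1, 2 and 3. The means were 7117 ± 275 CPM and 5707 ± 744 CPM (SD, n = 3 each), which is 1.25-fold higher, and the groups did not overlap. The sum was dominated by few genes, the 10 most abundant rows holding 59.5% of it and HIST1H1C alone 13.3%. As a log2 ratio the difference was 0.32, and 0.25 without ADAR1 p110 replicate 1 and GFP replicate 2. With that pair left out, the ratios by class were 0.21 for H1, 0.32 for H2A, 0.18 for H2B, 0.36 for H3 and 0.23 for H4, against 0.28, 0.37, 0.24, 0.43 and 0.31 with all libraries. In these cultures, more cells in S phase and more histone RNA per cell cannot be told apart.

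**Figure D1:**
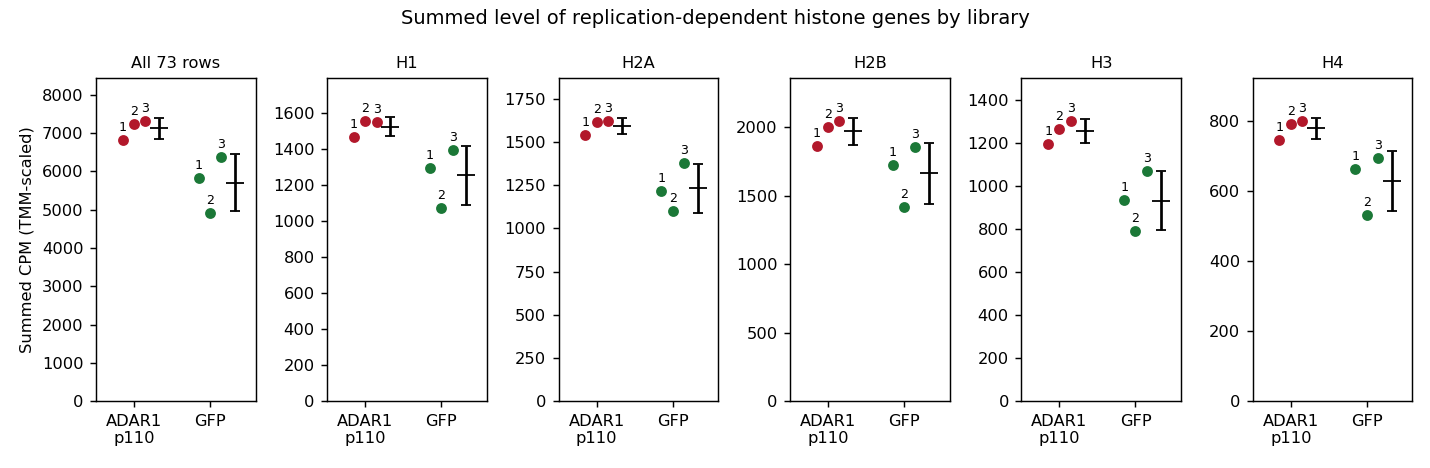
Summed CPM of all 73 histone rows and of each class in ADAR1 p110 (red) and GFP (green) libraries, with replicate numbers beside the points and mean ± SD (n = 3) as bars; each vertical axis starts at 0. In each panel the 3 ADAR1 p110 libraries lie above the 3 GFP libraries, by 422 CPM for all rows and by only 8.11 CPM for H2B, and GFP replicate 2 is lowest.

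Of the 45 tested rows 16 rose, 0 fell and 29 were not called (quasi-likelihood test of edgeR with an adjusted p, by Benjamini and Hochberg over all 18899 tested genes, under 0.05), where 1.95% of all tested genes rose and 2.96% fell. At an unadjusted p under 0.05 the counts were 34 higher and 0 lower. The share of all genes at that threshold is not given. DESeq2 called 28 higher and 0 lower, where it called 3.17% of all genes higher and 3.77% lower. With limma-voom 18 were higher and 0 lower, where 1.97% of all genes were higher and 3.10% lower. The log2 fold change, ADAR1 p110 over GFP, was positive for 44 rows and negative for 1, HIST1H4I, with a median of 0.34, against 0.00 over all tested genes. In 33 of the 45 rows each ADAR1 p110 library stood above each GFP library, as in 11.8% of all tested genes, and in 0 rows below. The changes were moderate, with log2 fold changes of 0.29 to 0.70 among the 16 that rose. Without ADAR1 p110 replicate 1 and GFP replicate 2, 32 of the 45 rose and the median was 0.28, while the share of all genes that rose was 6.07%, against 1.95% with all libraries. The count was 27 without ADAR1 p110 replicate 1 (4.03% of all genes), 22 without GFP replicate 3 (0.761%) and 14 without GFP replicate 2 (1.25%). It was 7 without ADAR1 p110 replicate 2 (0.766%), 7 without ADAR1 p110 replicate 3 (0.567%) and 6 without GFP replicate 1 (0.520%). A total of 6 genes, HIST1H2AB, HIST1H2BM, HIST1H3H, HIST1H3J, HIST1H4A and HIST2H3D, rose in the main test and in each of the 13 alternatives.

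**Figure D2:**
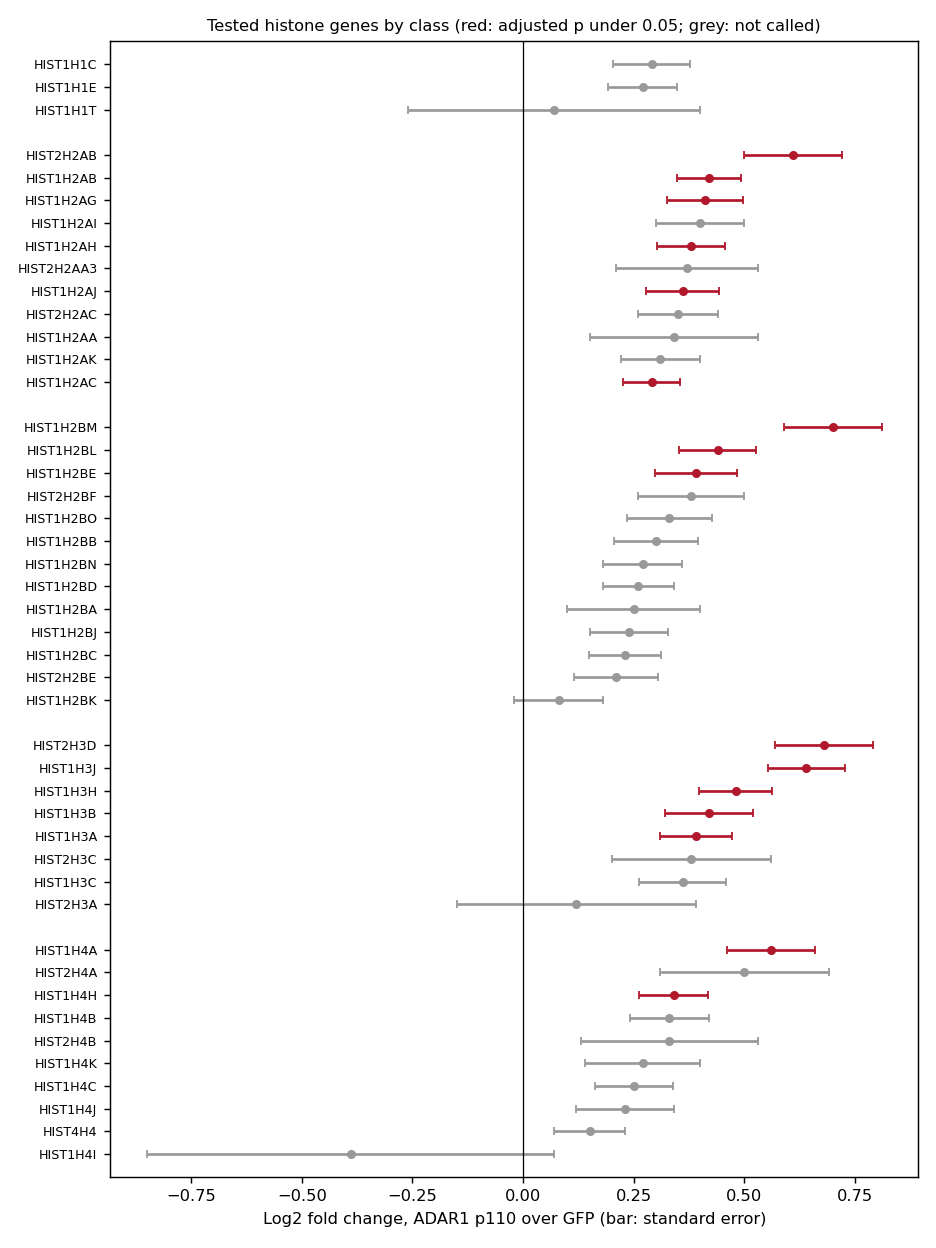
Log2 ratio of ADAR1 p110 to GFP for the 45 tested histone rows, grouped from top to bottom as H1, H2A, H2B, H3 and H4, with standard errors as bars; red marks an edgeR adjusted p under 0.05. All points but HIST1H4I (-0.39) lie right of 0, and the 16 red points run from 0.29 (HIST1H2AC) to 0.70 (HIST1H2BM).

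Calls were made among the rows above 10 CPM. Of the 10 tested rows below it none was called by edgeR, DESeq2 or limma-voom and 2 had an unadjusted edgeR p under 0.05, while 9 of the 14 between 10 and 100 CPM and 7 of the 21 above 100 CPM rose. Median log2 fold changes were 0.09 for the 4 rows under 1 CPM, 0.35 for the 6 between 1 and 10 CPM, 0.39 between 10 and 100 CPM and 0.33 above 100 CPM. Row length did not part the calls, with 5 of 14 tested rows over 1000 bases and 11 of 31 shorter rows called and a median of 0.34 in both. The replicates moved together across genes: GFP replicate 2 was the lowest of its group in 34 of 45 rows and GFP replicate 3 the highest in 36, and ADAR1 p110 replicate 1 was the lowest of its group in 37. The part of this shared order in the result was not tested beyond leaving libraries out.

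Linker histone H1 had 2 abundant genes and no call by edgeR, though 2 of its 3 tested rows had an unadjusted p under 0.05 and 2 were called by DESeq2. Its summed level was 1522 ± 50.2 CPM in ADAR1 p110 and 1252 ± 164 CPM in GFP (SD, n = 3 each), 1.22-fold higher without overlap of the groups. HIST1H1C (H1.2; hg19 chr6:26056015-26056656), the most abundant histone gene here, had 893, 954 and 963 CPM in ADAR1 p110 and 792, 649.5 and 854 CPM in GFP. Its groups did not overlap, but its log2 fold change of 0.29 (standard error 0.087) missed the threshold at an edgeR adjusted p of 0.0887. HIST1H1E (H1.4), the other main linker gene, had 571, 601 and 583 CPM in ADAR1 p110 and 501, 421 and 537 CPM in GFP, with a log2 fold change of 0.27 (standard error 0.078; edgeR adjusted p = 0.0850). Both passed the threshold without ADAR1 p110 replicate 1, alone or together with GFP replicate 2. HIST1H1C took 61.5% of H1 CPM in ADAR1 p110 and 61.1% in GFP, so the makeup of the class was nearly the same in both groups.

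The remaining H1 rows held few counts, which do not part silent genes from reads that the authors' counting left out. HIST1H1T, the testis-specific linker histone, had 0.369, 0.477 and 0.246 CPM in ADAR1 p110 and 0.277, 0.345 and 0.427 CPM in GFP, and these ranges overlapped. HIST1H1A, HIST1H1B and HIST1H1D, the somatic genes for H1.1, H1.5 and H1.3, never exceeded 3 counts in any library. HIST1H1C and HIST1H1E therefore made up nearly all of the counted H1 level in both groups.

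H2A was the class with most calls. It summed to 1541, 1612 and 1623 CPM in ADAR1 p110 and 1218, 1098 and 1376 CPM in GFP, 1.29-fold higher. Of its 11 tested rows 6 rose, all 11 had ADAR1 p110 libraries above GFP libraries, and the median log2 fold change was 0.37. H2A pairs with H2B in the dimers that flank the nucleosome's central tetramer.

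The largest estimate in H2A was that of HIST2H2AB (hg19 chr1:149859074-149859466, minus strand), at 33.6, 33.5 and 34.5 CPM in ADAR1 p110 and 19.4, 19.7 and 27.3 CPM in GFP. The ADAR1 p110 replicates lay close together and above GFP replicate 3, the highest of its group. It rose by a log2 fold change of 0.61 (standard error 0.11; edgeR adjusted p = 0.0108), a call lost only without GFP replicate 1 among 13 alternatives. HIST1H2AB (chr6:26033404-26033796) had 144, 148 and 153 CPM in ADAR1 p110 and 112, 99.3 and 123 CPM in GFP. It rose with a log2 fold change of 0.42 (standard error 0.072; edgeR adjusted p = 0.00742), and no alternative lost the call.

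Among the more abundant H2A genes, HIST1H2AG (chr6:27100821-27103070), the first of its class by CPM, had 332, 339 and 348 CPM in ADAR1 p110 and 253, 220.5 and 293 CPM in GFP. It rose with a log2 fold change of 0.41 (standard error 0.086; edgeR adjusted p = 0.0204). HIST1H2AC stood at 315, 320 and 320 CPM in ADAR1 p110 and 267, 235 and 279 CPM in GFP, and rose by 0.29 on the log2 scale (standard error 0.064; edgeR adjusted p = 0.0254), the smallest change called. Its ADAR1 p110 replicates were almost equal. HIST1H2AH had 230.2, 239 and 233 CPM in ADAR1 p110 against 184, 156 and 199 CPM in GFP (log2 fold change 0.38, standard error 0.077, edgeR adjusted p = 0.0169). HIST1H2AJ had 91.7, 99.6 and 100.1 CPM in ADAR1 p110 against 77.5, 65.3 and 83.3 CPM in GFP (log2 fold change 0.36, standard error 0.082, edgeR adjusted p = 0.0289). These 4 genes lost their calls without ADAR1 p110 replicate 2, ADAR1 p110 replicate 3 or GFP replicate 1, left out singly. HIST1H2AC and HIST1H2AJ also lost theirs with the replicate number as a block.

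HIST2H2AC, next below HIST1H2AG and HIST1H2AC by level, had 220.1, 246 and 240.5 CPM in ADAR1 p110 and 159, 184 and 211 CPM in GFP. The groups stood apart, but the log2 fold change of 0.35 (standard error 0.090) just missed the threshold, at an edgeR adjusted p of 0.0515. It lies between HIST2H2BE and HIST2H2AB in the HIST2 cluster. The other 4 tested H2A rows, HIST1H2AI, HIST2H2AA3, HIST1H2AA and HIST1H2AK, had log2 fold changes of 0.40, 0.37, 0.34 and 0.31 and were not called.

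H2B held the most RNA of any class, 1860, 2001 and 2048 CPM in ADAR1 p110 and 1721, 1416 and 1852 CPM in GFP. The 1.18-fold difference was the smallest of the classes, and ADAR1 p110 replicate 1 exceeded GFP replicate 3 by only 8.11 CPM. Of 13 tested rows 3 rose, and the median log2 fold change was 0.27. 

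HIST1H2BM (ENSG00000273703.1_2; chr6:27782822-27783202, plus strand) had the largest log2 fold change of all members. It had 12.1, 13.6 and 13.8 CPM in ADAR1 p110 and 8.16, 6.77 and 9.36 CPM in GFP. Even the lowest ADAR1 p110 library exceeded the highest GFP library, and the gene rose with a log2 fold change of 0.70 (standard error 0.11; edgeR adjusted p = 0.00472), though it held just 0.667% of H2B CPM in ADAR1 p110 and 0.486% in GFP. HIST1H2BL had 45.5, 50.4 and 52.8 CPM in ADAR1 p110 against 38.3, 31.8 and 39.7 CPM in GFP (log2 fold change 0.44, standard error 0.087, edgeR adjusted p = 0.0156). HIST1H2BE had 23.8, 26.6 and 25.7 CPM in ADAR1 p110 against 19.6, 16.7 and 21.8 CPM in GFP (log2 fold change 0.39, standard error 0.092, edgeR adjusted p = 0.0361). These 3 were among the less abundant H2B genes. HIST1H2BL and HIST1H2BE lost their calls without ADAR1 p110 replicate 2, ADAR1 p110 replicate 3 or GFP replicate 1. HIST1H2BE also lost its call without GFP replicate 2 and with the replicate number as a block.

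The 3 most abundant H2B genes were not called. HIST1H2BC had 293, 351 and 349 CPM in ADAR1 p110 and 297, 256 and 296 CPM in GFP, ADAR1 p110 replicate 1 falling inside the GFP range (log2 fold change 0.23, standard error 0.081, edgeR adjusted p = 0.155). HIST1H2BD had 279, 313 and 322 CPM in ADAR1 p110 and 262, 224 and 276 CPM in GFP, with groups that stood apart and a log2 fold change of 0.26 (standard error 0.080, edgeR adjusted p = 0.0996). HIST1H2BJ had 277, 303 and 302 CPM in ADAR1 p110 and 263, 209 and 273 CPM in GFP (log2 fold change 0.24, standard error 0.088, edgeR adjusted p = 0.166). The first pair of these passed the threshold without ADAR1 p110 replicate 1. HIST1H2BK (chr6:27114197-27114577, minus strand), chosen after its values were seen because it had the smallest log2 fold change among rows above 100 CPM, had 268, 262 and 264 CPM in ADAR1 p110 and 258, 203 and 291 CPM in GFP. Its GFP range enclosed all ADAR1 p110 values (log2 fold change 0.08, standard error 0.10, edgeR adjusted p = 0.759), and its estimate was -0.05 without GFP replicate 2.

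H3 showed the largest fold difference of the class sums. The class had 1194, 1265 and 1303 CPM in ADAR1 p110 and 934, 792 and 1068 CPM in GFP, or 1254 ± 55.2 CPM against 931 ± 138 CPM (SD, n = 3 each), 1.35-fold higher. Of 8 tested rows 5 rose, and the median log2 fold change was 0.40. H3 and H4 form the tetramer at the core of the nucleosome, and the tail of H3 carries many of the known chromatin marks.

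HIST2H3D (ENSG00000183598.3_2; chr1:149784826-149785236, minus strand) had 58.6, 64.3 and 64.3 CPM in ADAR1 p110 and 32.8, 37.5 and 46.3 CPM in GFP. It rose with a log2 fold change of 0.68 (standard error 0.11; edgeR adjusted p = 0.00375). HIST1H3J (ENSG00000197153.4_3; chr6:27858160-27860884, minus strand) had 53.5, 54.4 and 53.1 CPM in ADAR1 p110 and 34.4, 29.4 and 39.2 CPM in GFP. It had the smallest adjusted p of the members, with a log2 fold change of 0.64 (standard error 0.088; edgeR adjusted p = 0.00178). HIST1H3H had 203, 230.3 and 236 CPM in ADAR1 p110 and 155, 145 and 180.1 CPM in GFP, and rose by 0.48 on the log2 scale (standard error 0.083; edgeR adjusted p = 0.00742). In all 3 genes the groups stood well apart, and no alternative lost the call.

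HIST1H3B (chr6:26031878-26032288), the most abundant H3 gene and a source of H3.1, had 459, 456 and 480.1 CPM in ADAR1 p110 and 349.8, 286 and 408 CPM in GFP. It rose with a log2 fold change of 0.42 (standard error 0.10; edgeR adjusted p = 0.0415). HIST1H3A had 80.5, 95.0 and 94.0 CPM in ADAR1 p110 and 69.7, 62.0 and 74.2 CPM in GFP, and rose with a log2 fold change of 0.39 (standard error 0.081; edgeR adjusted p = 0.0197). Neither gene was called without ADAR1 p110 replicate 2, ADAR1 p110 replicate 3 or GFP replicate 1, left out singly, nor HIST1H3A without GFP replicate 2. HIST1H3C, second by level, had 338, 363 and 373 CPM in ADAR1 p110 and 291, 229.8 and 319 CPM in GFP. Its log2 fold change of 0.36 (standard error 0.099) was not called, at an edgeR adjusted p of 0.0707.

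**Figure D3:**
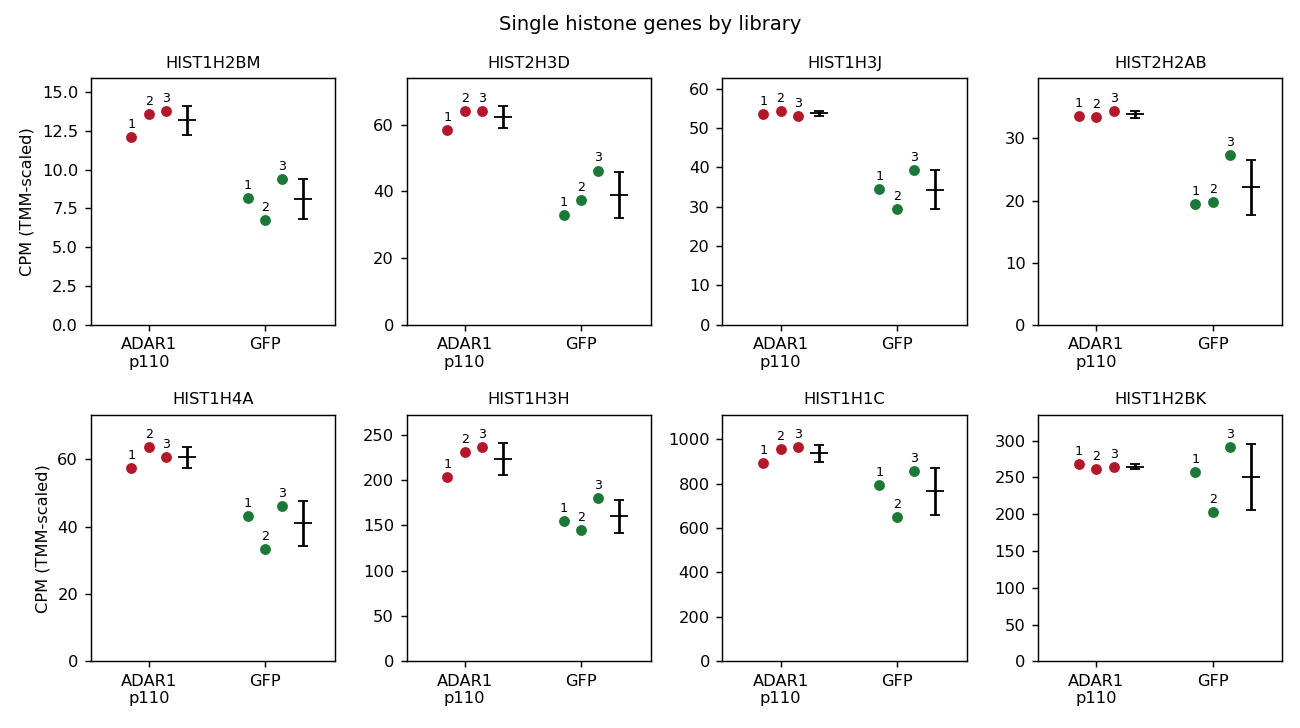
CPM of 8 histone genes in the ADAR1 p110 (red) and GFP (green) libraries, with replicate numbers and mean ± SD (n = 3); each vertical axis starts at 0. HIST1H2BM, HIST2H3D, HIST1H3J, HIST2H2AB, HIST1H4A and HIST1H3H rose without overlap, HIST1H1C stood apart but was not called, and the GFP values of HIST1H2BK (203 to 291 CPM) enclose its ADAR1 p110 values.

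H4 was the least abundant class and had 745, 789.8 and 801 CPM in ADAR1 p110 and 662, 533 and 694 CPM in GFP, 1.24-fold higher. Of 10 tested rows 2 rose, the median log2 fold change was 0.30, and the groups stood apart in 4. HIST1H4A (chr6:26021907-26022218, plus strand) had 57.5, 63.6 and 60.6 CPM in ADAR1 p110 and 43.3, 33.4 and 46.2 CPM in GFP. It rose with a log2 fold change of 0.56 (standard error 0.10; edgeR adjusted p = 0.00939), a call that no alternative lost. HIST1H4H had 174, 184 and 189 CPM in ADAR1 p110 and 152, 125 and 155 CPM in GFP, and rose by 0.34 on the log2 scale (standard error 0.078; edgeR adjusted p = 0.0331). The call of HIST1H4H was lost without ADAR1 p110 replicate 2, ADAR1 p110 replicate 3 or GFP replicate 1, and with the replicate number as a block. Most H4 genes encode one and the same protein.

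The other abundant H4 genes, HIST1H4C with 218, 231 and 239 CPM in ADAR1 p110 and 203, 163 and 214 CPM in GFP, and HIST1H4B with 211, 222 and 219 CPM in ADAR1 p110 and 182, 145 and 193 CPM in GFP, were not called. Their log2 fold changes were 0.25 (standard error 0.088, edgeR adjusted p = 0.154) and 0.33 (standard error 0.089, edgeR adjusted p = 0.0649). HIST4H4, the sole gene of its locus, had 58.7, 61.4 and 62.9 CPM in ADAR1 p110 and 57.4, 47.6 and 60.0 CPM in GFP, with overlapping groups. HIST1H4I, the lowest estimate of the 45 at -0.39 (standard error 0.46, edgeR adjusted p = 0.729), had 19, 18 and 24 counts in ADAR1 p110 and 46, 10 and 28 counts in GFP, and without GFP replicate 1 its estimate was 0.19.

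The shares of the classes in histone CPM shifted by small amounts. Between ADAR1 p110 and GFP, H1 took 21.4% and 21.9% of histone CPM, H2A 22.4% and 21.6%, H3 17.6% and 16.3%, H2B 27.7% and 29.1%, and H4 10.9% and 11%. The H2B share was lower in each ADAR1 p110 library, at 27.3% to 28.0%, than in each GFP library, at 28.8% to 29.5%. The H3 share stood at 17.5% to 17.8% in ADAR1 p110 and 16.0% to 16.7% in GFP, again without overlap, and these shares were not tested. HIST1 genes held 90.4% of histone CPM over all libraries and HIST2 genes 8.74%. Of 34 tested HIST1 rows 14 rose (median log2 fold change 0.33), and of 10 tested HIST2 rows 2 rose (median 0.37). HIST2 as a whole summed to 602, 636 and 646 CPM in ADAR1 p110 and 456, 447 and 573 CPM in GFP. The 3 HIST3 rows together stayed at or below 0.122 CPM in each library.

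Per length of the gene row, HIST1H1C led with 1326 CPM per kilobase, followed by HIST1H3B with 989, HIST1H3C with 776, HIST1H1E with 710.5 and HIST1H2BK with 677 CPM per kilobase, averaged over the 6 libraries. Lengths are those of the deposited rows, and rows such as HIST1H2BN, with 5477 bases, include sequence beyond the short histone unit. Its level of 10.2 CPM per kilobase is therefore not comparable with that of a row of 381 bases such as HIST1H2BM, at 27.9.

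Of the 73 rows, 10 had no count in any library, 17 reached 1 to 10 counts, 11 reached 11 to 1000 counts and 35 exceeded 1000 counts in at least 1 library. The near-silent rows were not scattered. In genomic order along HIST1, 16 consecutive rows from HIST1H4D to HIST1H2BI (hg19 chr6:26188993-26273584, 84.6 kb) held 97 counts in total over all 6 libraries, with at most 6 in any library. Just outside it, HIST1H2BE averaged 22.4 CPM and HIST1H4H 163 CPM. The run holds genes of all 5 classes, HIST1H4D, HIST1H3D (2 rows), HIST1H2AD, HIST1H2BF, HIST1H4E, HIST1H2BG, HIST1H2AE, HIST1H3E, HIST1H1D, HIST1H4F, HIST1H4G, HIST1H3F, HIST1H2BH, HIST1H3G and HIST1H2BI. The 5 other rows of the table inside it had at most 2 counts in any library.

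A second run of 4 rows, HIST1H2AL, HIST1H1B, HIST1H3I and HIST1H4L (chr6:27833133-27841288, 8.16 kb), held 7 counts in total, between HIST1H2AK at 42.5 CPM and HIST1H3J at 44 CPM. HIST1H1A alone, with at most 3 counts, stood between HIST1H2BA and HIST1H3A. Outside HIST1 the rows with at most 10 counts were HIST2H2AA4 (2 rows) and HIST2H3PS2, all listed at 0, and HIST3H3, HIST3H2A and HIST3H2BB. In both groups these 27 rows were at or near the level of a few counts, and no fold change is given for them. Why they were near silent was not tested, and these counts do not part silent genes from reads that the authors' counting left out. Of the 27 rows, 6 share span and strand with another histone row and 20 overlap no other row of the table.

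**Figure D4:**
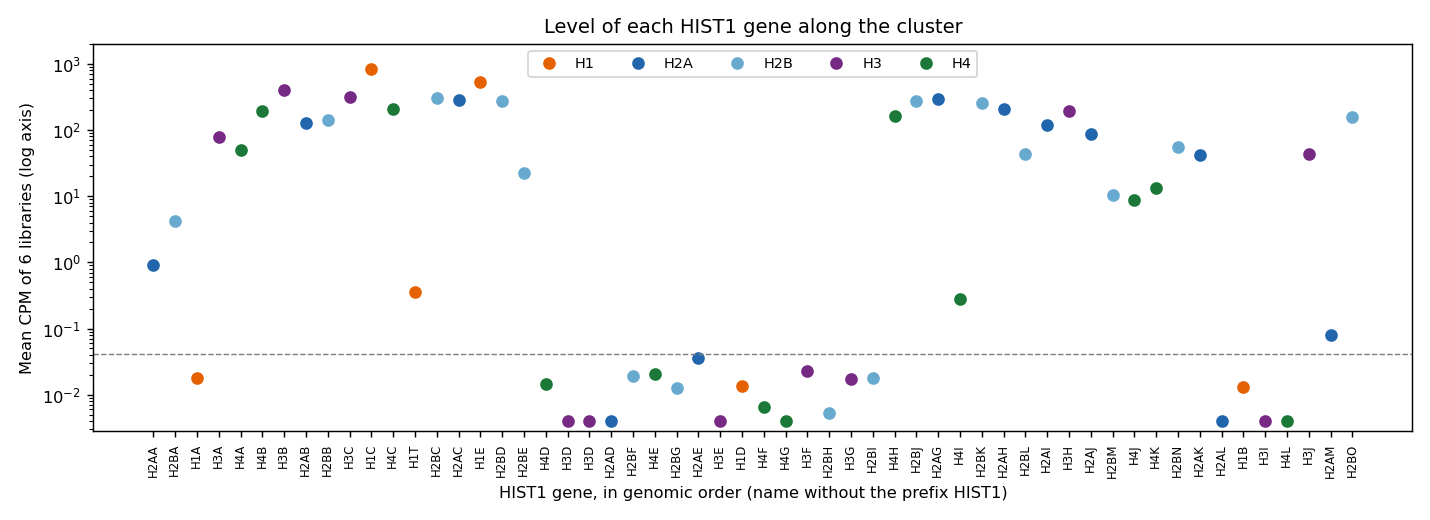
Mean CPM over the 6 libraries (log axis) of the 56 HIST1 rows in genomic order, coloured by class; rows at 0 or below the axis are drawn at its foot, and the dashed line marks 0.0414 CPM, the limit that a count of 0 allows in GFP replicate 2. The 16 rows from H4D to H2BI and the 4 from H2AL to H4L lie below the line, while their neighbours lie between 22.4 and 163 CPM.

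Near-identical copies limit what single rows can show. In the last 300 coding bases of each gene, 30 of the 45 tested rows shared no stretch of 100 bases with another histone row, 4 shared 2.49% to 27.4% of such stretches, 4 shared 53.2% to 80.1%, and 7 shared all. The last were HIST2H2AA3, HIST2H3A, HIST2H3C, HIST2H4A, HIST2H4B, HIST1H4J and HIST1H4K, none of which was called, and reads from them could be lost or split. Of the 16 genes that rose, 13 shared none, and HIST1H2AJ shared 80.1%, HIST2H3D 60.7% and HIST1H2BE 2.49%. The rows of the near-silent runs shared 0%, while copies elsewhere in the genome were not examined. HIST1H2AM, with at most 11 counts, partly overlaps HIST1H3J on the same strand, and HIST1H2AL lies inside the span of HIST1H2BN. The split of reads within these pairs is therefore uncertain.

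Promoter sequences were taken from RefSeq (GRCh38.p14) by gene symbol, which gave a sequence for 65 of the 73 rows. HIST1H2BF and HIST1H2BG were given the symbol, and so the promoter, of HIST1H2BD, and their own promoters were not read. The shares of H2B and of all members count that promoter repeatedly, and HIST2H2AA4 enters with both of its rows. In the 250 bases before the start, on either strand, TATAAA was present in 67.7% of histone promoters, against 10.7% of 35116 promoters in the table. CCAAT was present in all promoters of H1, H2A, H2B and H3 and in 25% of those of H4, or 86.2% of all members against 32.0% of all promoters. The octamer ATTTGCAT, known as the OCT1 site of H2B promoters, was present in 66.7% of H2B and 68.8% of H2A promoters, in 7.69% of H3 promoters and in none of H1 or H4, against 1.63% of all promoters. None of the 3 motifs contains another, and a match is a description of the sequence and not of binding.

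The 150 bases before the start are shown for the pair of matched genes with the largest log2 fold changes, HIST1H2BM and HIST2H3D, and for HIST1H2BK, the abundant gene whose groups overlapped. Capitals mark CCAAT or its complement ATTGG, the octamer and TATAAA.
HIST1H2BM: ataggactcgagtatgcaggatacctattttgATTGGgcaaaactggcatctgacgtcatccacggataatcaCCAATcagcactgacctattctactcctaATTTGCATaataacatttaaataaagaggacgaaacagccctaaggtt
HIST2H3D: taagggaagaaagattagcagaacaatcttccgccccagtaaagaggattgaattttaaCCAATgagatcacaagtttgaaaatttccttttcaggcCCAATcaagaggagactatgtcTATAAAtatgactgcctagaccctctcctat
HIST1H2BK: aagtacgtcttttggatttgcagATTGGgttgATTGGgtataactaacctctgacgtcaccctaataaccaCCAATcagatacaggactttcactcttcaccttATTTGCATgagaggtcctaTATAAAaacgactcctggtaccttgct
In GRCh38.p14 they stand at chr6:27814872-27815021 (plus strand), chr1:149813694-149813843 (minus) and chr6:27146859-27147008 (minus). The HIST2H3D promoter holds CCAAT at positions -91 and -53 and TATAAA at -31, and no octamer in this window. Both H2B promoters hold the octamer, at -48 in HIST1H2BM and -46 in HIST1H2BK, and TATAAA stands at -27 in that of HIST1H2BK. HIST1H2BM holds TATAAA in the 250 bases scanned but not in the 150 shown.

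Genes that make, process and read histone transcripts were read from the same test. Of 37 tested factors of histone gene expression, 1 rose and 1 fell, where 1.95% of all tested genes rose and 2.96% fell. The median log2 fold change of the factors was -0.03. SLBP had 97.3, 108 and 106 CPM in ADAR1 p110 and 96.2, 99.3 and 95.2 CPM in GFP, with overlapping groups (log2 fold change 0.10, standard error 0.055, edgeR adjusted p = 0.369). NPAT stood at 72.4 ± 1.84 CPM in ADAR1 p110 and 71.9 ± 1.23 CPM in GFP (SD, n = 3 each). CASP8AP2, which encodes the processing factor FLASH, stood at 36.3 ± 3.78 CPM in ADAR1 p110 and 34.0 ± 2.38 CPM in GFP. LSM11, a subunit of the U7 particle, stood at 21.7 ± 0.971 CPM in ADAR1 p110 and 23.5 ± 1.65 CPM in GFP.

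The factor that rose was E2F1, a transcription factor of the G1/S transition, with 44.4, 49.6 and 45.6 CPM in ADAR1 p110 and 38.8, 36.2 and 39.7 CPM in GFP (log2 fold change 0.28, edgeR adjusted p = 0.0271). CDC25A, the phosphatase that activates CDK2, fell to 85.4, 96.9 and 94.9 CPM in ADAR1 p110, against 110.4, 112 and 117 CPM in GFP (log2 fold change -0.29, edgeR adjusted p = 0.0172). Neither gene was called without ADAR1 p110 replicate 3, GFP replicate 1 or GFP replicate 3, and E2F1 also lost its call without replicate 2 of either group. Of 25 histone chaperones 1 rose, ASF1B, which hands new H3 and H4 to the assembly machinery, with 39.9, 45.6 and 43.1 CPM in ADAR1 p110 and 33.9, 30.6 and 35.8 CPM in GFP (log2 fold change 0.36, edgeR adjusted p = 0.0181). ASF1B was not called without ADAR1 p110 replicate 2, ADAR1 p110 replicate 3, GFP replicate 1 or GFP replicate 2, left out singly. The median of the chaperones was 0.03, and 0 of them fell, where 1.95% of all tested genes rose and 2.96% fell.

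Genes of DNA replication and S phase, the time at which histone genes are used, were examined next. Of 59 tested, 6 rose and 1, CDC25A, fell, where 1.95% of all tested genes rose and 2.96% fell. The list had 46 positive estimates and a median log2 fold change of 0.08. Those that rose were MCM6, a subunit of the replicative helicase (0.23), GINS1 (0.29) and GINS2 (0.27), which complete that helicase, E2F1, E2F2 (0.36) and CDCA7 (0.27). The summed level of all 59 S phase genes was 4515, 4737 and 4777 CPM in ADAR1 p110 and 4468, 4347 and 4551 CPM in GFP, and these ranges overlapped. Without ADAR1 p110 replicate 1 and GFP replicate 2, 16 rose and 2 fell, in a fit where 6.07% of all genes rose and 7.32% fell. Without GFP replicate 1 (0.520% of all genes higher) or without GFP replicate 3 (0.761%), 0 rose.

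Variant histones, most of which are made outside S phase as well and carry a poly(A) tail, were also examined. Of 11 tested, 3 rose and 0 fell, where 1.95% of all tested genes rose and 2.96% fell. H2AFX, the variant phosphorylated at DNA breaks, had 66.4, 75.6 and 75.0 CPM in ADAR1 p110 and 39.7, 58.9 and 54.3 CPM in GFP (log2 fold change 0.51, edgeR adjusted p = 0.0376). H1FX, a linker variant, had a log2 fold change of 0.38 (edgeR adjusted p = 0.0348) and CENPA, the centromeric H3, of 0.34 (edgeR adjusted p = 0.0201). The median of the list was 0.09, and without ADAR1 p110 replicate 2, ADAR1 p110 replicate 3, GFP replicate 1 or GFP replicate 3 none was called.

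**Figure D5:**
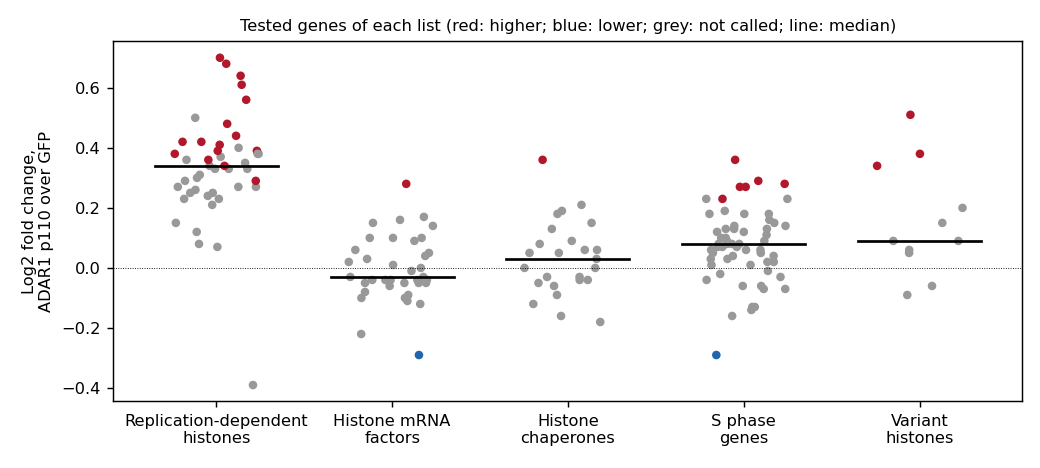
Log2 ratio of ADAR1 p110 to GFP for the tested genes of 5 lists, with red for genes called higher, blue for lower, grey for not called and a line at each median. Medians are 0.34 for the replication-dependent histone genes, -0.03 for histone mRNA factors, 0.03 for chaperones, 0.08 for S phase genes and 0.09 for variant histones.

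Small noncoding RNAs that lack a poly(A) tail gave a view of how tail-less RNA fared in the libraries. Of 17 listed, 12 were matched and 10 tested, and none was called by edgeR, DESeq2 or limma-voom, with 3 at an unadjusted edgeR p under 0.05. Of these 3, 2 were higher and 1 lower in ADAR1 p110. Their summed level was 14828, 19381 and 18017 CPM in ADAR1 p110 and 19049, 18174 and 16951 CPM in GFP, and these ranges overlapped. RN7SL2, with means of 11355 and 11586 CPM, and RMRP, with 4861 and 5359 CPM, dominated this sum. The median log2 fold change was -0.07, with 4 positive estimates. In TERC (0.21) and RNU4ATAC (0.33) each ADAR1 p110 library stood above each GFP library, as in 11.8% of all tested genes. The edgeR adjusted p was 0.139 for both. SCARNA7 had a negative estimate (-0.25) with overlapping groups (edgeR adjusted p = 0.267). The part of library preparation in the histone result was not tested further.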

How the data were processed

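Per the labels' protocols, RNA was extracted on columns and a stranded kit for total RNA was used for the libraries. Per the submitters' processing notes, reads were aligned to hg19 with STAR 2.5.2a and counted with featureCounts 1.5.1, and DESeq2 1.4.5 in R 3.1 is named. The deposited values are raw counts per gene, which the authors did not normalize, with coordinates and row lengths per the file headers. Whether counting used the strand, and how reads with several alignments or on overlapping genes were treated, is not given in the sources used here.

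Genes were kept by filterByExpr of edgeR 4.0.16 (minimum count 10), scaled by TMM and tested in R 4.3.3 by its quasi-likelihood functions, glmQLFit followed by glmQLFTest, on group alone with Benjamini-Hochberg adjustment over 18899 genes. An adjusted p under 0.05 was called. The SE is the size of the log2 fold change over the square root of F, and the biological coefficient of variation was 8%. CPM are TMM-scaled, and class sums carry no test. On simulated counts for this comparison (18899 genes), edgeR recovered 20% of genes changed 1.2-fold, 98% at 1.5-fold and 100% at 2-fold and 4-fold, with 4.79% false calls. The simulation gave every gene the same biological coefficient of variation, held no shift shared within a library and changed only genes above 1 CPM. These rates therefore need not hold for the real libraries. Replicates differed by more than sampling noise in a chi-square test of counts.

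The text names every called histone row, the 3 most abundant of each class, the lowest and highest log2 fold change, the rows never above 3 counts, every called gene of the other lists, and SLBP, NPAT, CASP8AP2, LSM11 and ADAR. Members and lists were chosen with earlier results of these data known. PECAM1, RN7SL1, RPPH1, SCARNA10, RNU11 and RNU12 were not matched, and RN7SK and RNU7-1 are listed at 0. Alternatives used DESeq2 size factors, library size alone, no low-count filter, DESeq2 1.42.0, limma-voom (limma 3.58.1), a replicate block and libraries left out. Stem-loops were read from the hg19 genome and promoters from RefSeq.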

Additional observations from a re-analysis of the deposited data

Results flagged for a closer look

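Histone pseudogene rows lay outside the comparison. Those that passed the low-count filter were HIST2H2BC, HIST2H3DP1, HIST2H2BA, HIST1H2APS5 and HIST2H2BB. In 2 of these the CPM of each ADAR1 p110 library stood above each GFP library, as in 11.8% of all tested genes. HIST2H3DP1, a row next in name to HIST2H3D, had 3.25, 2.88 and 2.82 CPM in ADAR1 p110 and 2.39, 2.41 and 2.67 CPM in GFP, with a mean of 2.98 CPM in ADAR1 p110, and the groups did not overlap. Its log2 fold change of 0.26 was not called (edgeR adjusted p = 0.273). HIST2H2BB had 0.803, 0.853 and 0.957 CPM in ADAR1 p110 and 0.634, 0.538 and 0.742 CPM in GFP, with a mean of 0.871 CPM in ADAR1 p110, and was not called either (log2 fold change 0.44, edgeR adjusted p = 0.304). HIST2H2BA, the most abundant pseudogene row, had 3.82, 5.02 and 4.77 CPM in ADAR1 p110 and 4.64, 3.93 and 4.87 CPM in GFP, with overlapping groups.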

How the results depend on the processing

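The summed difference, recomputed with both other scalings, without the most abundant row, as a mean of log2 CPM and with libraries left out, kept its sign in each class, with a log2 ratio over all rows of 0.22 (without GFP replicate 2) to 0.41 (without GFP replicate 3) around 0.32. No alternative called a histone row lower. The number of rows that rose, 16 (1.95% of all genes), became 33 of 63 without a low-count filter (2.18%) and 28 with DESeq2 (3.17%). It became 32 with ADAR1 p110 replicate 1 and GFP replicate 2 both left out (6.07%), and ran from 6 to 27 with single libraries left out. It was 16 with DESeq2 size factors (1.94%), 19 with library size alone (2.70%) and 18 with limma-voom (1.97%). Library size alone moved the median of all genes to 0.03. With the replicate number as a block 14 rose, 12 of them shared with the 16, and HIST1H2AC, HIST1H2AJ, HIST1H2BE and HIST1H4H lost their calls. However, same-numbered libraries correlated at -0.109, -0.0296 and 0.0433 in their deviations, so the numbers do not pair them. With that block, 0 factors and 0 S phase genes rose or fell, where 0.926% of all genes rose and 1.76% fell. With the pair of libraries left out, 4 factors rose and 2 fell, and 16 S phase genes rose and 2 fell, where 6.07% of all genes rose and 7.32% fell. With single libraries left out, 0 to 3 factors rose and 0 to 2 fell. In the same fits 0 to 11 S phase genes rose and 0 to 2 fell, and 0 to 3 variant histones rose. Of all genes, 0.520% to 4.03% rose and 1.54% to 5.16% fell in these fits. Among the 45 rows and SLBP, NPAT, CASP8AP2 and LSM11, signs reversed for HIST1H2BK (-0.05 without GFP replicate 2, -0.06 without the pair, up to 0.20 without GFP replicate 3), HIST2H3A (-0.07 without GFP replicate 1, up to 0.36 without GFP replicate 2), HIST1H1T (-0.19 without ADAR1 p110 replicate 2, -0.08 without GFP replicate 1, up to 0.28 without ADAR1 p110 replicate 3), HIST1H4I (0.19 without GFP replicate 1, down to -0.71 without GFP replicate 2) and NPAT (-0.01 without ADAR1 p110 replicate 1, -0.01 without the pair). Causes were not tested. For rows below 1 CPM, depth limits what can be seen.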
